A study of Mus musculus with 12 samples.

Results

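The CC chemokine ligands are small secreted proteins that draw leukocytes into tissue, and 10 of their genes were followed here in glomeruli exposed to TNF: Ccl2, Ccl3, Ccl4, Ccl5, Ccl7, Ccl8, Ccl11, Ccl17, Ccl19 and Ccl20. The members were chosen by name, with earlier results of these data known. Each was read from its probe set on the array, where a probe set is the group of short oligonucleotides that stand for a transcript. Of the 10 genes, 9 had a probe set annotated to that gene alone, 1 probe set each. The probe set listed for Ccl19 carries 10 gene symbols, so no value is given for Ccl19. These 9 are among 18193 genes with such a probe set.

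Glomeruli, the filtering capillary tufts of the kidney, were isolated with magnetic beads from male mice of 6 to 8 weeks on the C57Bl/6J background, and cultures of 5000 glomeruli were serum starved and then given TNF, at 50 ng/ml over 12 hours. There were 4 genotypes with 3 arrays each, 12 arrays in all: wildtype; Tnfr1-/-, with the Tnfrsf1atm1Mak allele and without TNF receptor 1 (TNFR1); Tnfr2-/-, with the Tnfrsf1btm1Mwm allele and without TNF receptor 2 (TNFR2); and Tnfr1,2-/-, with both alleles. All 12 cultures had received TNF, and unstimulated glomeruli were not analysed here, so every comparison is between genotypes under TNF and none is between TNF and no TNF. The mutations are germline, and every cell of a glomerulus carried them.

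TNF signals through TNFR1, which most cells carry, and through TNFR2, whose expression is more restricted. TNFR1 activates the transcription factor NF-kB, which moves to the nucleus once its inhibitors are degraded and switches on inflammatory genes, CC chemokines among them. The ligands bind to proteoglycans on endothelium and signal through G protein-coupled CC receptors on leukocytes, and in inflamed glomeruli they are known for recruiting monocytes and T cells.

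Values are log2 values of the robust multichip average (RMA), a background-corrected and normalized summary of a probe set, on which a difference of 1 is a doubling. The array medians lay between 5.59 and 5.64. As a guide to background, the 95th percentile of 39 olfactory receptor genes, which kidney is not known for, lay between 5.11 and 5.55 depending on the array, and a value of 6 is used here as a mark above it. Detection calls were not used here. A linear model with moderated variances (limma) was fitted to all genes and 12 arrays, with Benjamini-Hochberg adjustment across the 18193 genes. Calls required an adjusted p below 0.05 together with a change of 1.5-fold or more. The beta-actin control, whose 3′ and 5′ probe sets differ more where RNA is shorter, split the arrays into 2 sets. The difference was 0.667 to 1.005 on 7 arrays and 1.82 to 2.30 on the other 5, which were replicate 3 of every genotype and replicate 2 of Tnfr1,2-/- glomeruli. Of the glomerular markers, 6 of 6 podocyte genes and 8 of 8 endothelial genes reached 6 on at least 3 arrays. Transcripts of the deleted receptor genes were still measured in part: Tnfrsf1a had a mean log2 value of 10.56 in wildtype and 9.74 in Tnfr1-/- glomeruli, and Tnfrsf1b had 7.63 in wildtype and 5.33 in Tnfr2-/- glomeruli.

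Ccl2, Ccl5 and Ccl7 were the CC ligands that differed most by the presence of TNFR1. All 3 were lower in Tnfr1,2-/- and in Tnfr1-/- glomeruli than in wildtype, by 5.65-fold to 50.9-fold, and none of the 9 measured ligands was called in Tnfr2-/- glomeruli. Ccl20 fell by a smaller amount that passed the test over all 12 arrays. Between single genotypes it did not pass, except against Tnfr2-/- glomeruli once the replicate number was a block. Ccl3, Ccl4, Ccl8, Ccl11 and Ccl17 passed the test in no comparison with wildtype, except Ccl3 in Tnfr1,2-/- glomeruli once the replicate number was a block.

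**Figure D1:**
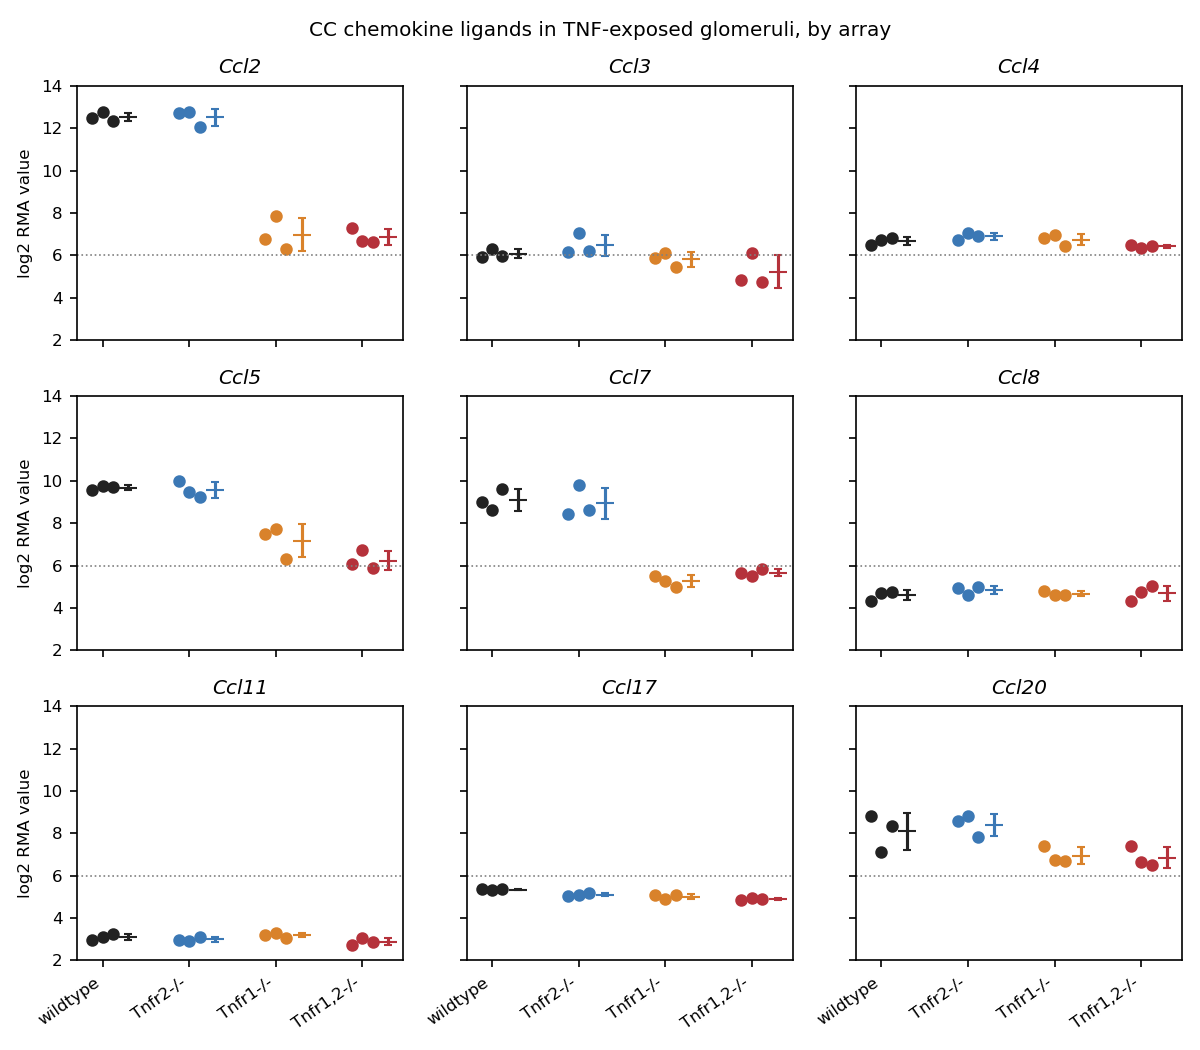
Log2 RMA value (y axis) of each of the 9 measured CC ligands on the 12 arrays by genotype (x axis). Points are arrays, the bar beside them is the mean with the SD of 3 arrays, and the dotted line marks a log2 value of 6. Ccl2, Ccl5 and Ccl7 form 2 levels that follow the presence of TNFR1, and the other 6 panels show smaller differences or none.

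Ccl2 encodes the monocyte chemoattractant MCP-1, a ligand of the receptor CCR2. Its log2 values were 12.51, 12.75 and 12.35 in wildtype and 12.72, 12.77 and 12.04 in Tnfr2-/- glomeruli. They were 6.78, 7.84 and 6.30 in Tnfr1-/- glomeruli and 7.30, 6.67 and 6.63 in Tnfr1,2-/- glomeruli. The 6 arrays with TNFR1 all lay above the 6 without it, with a gap of 4.20 on the log2 scale between the lowest of the former and the highest of the latter. In Tnfr1,2-/- glomeruli the level was below wildtype by a log2 difference of -5.67 (SE 0.353, limma adjusted p = 1.13e-05), which is 50.9-fold. In Tnfr1-/- glomeruli it fell by 5.56 (SE 0.353, limma adjusted p = 1.66e-05). Even so, its lowest value without TNFR1, 6.30, was above the background mark.

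Ccl7 encodes MCP-3, another monocyte chemoattractant, and lies next to Ccl2 on chromosome 11. Its log2 values were 9.02, 8.61 and 9.63 in wildtype and 8.42, 9.79 and 8.62 in Tnfr2-/- glomeruli. Without TNFR1 they were 5.51, 5.29 and 4.97 in Tnfr1-/- and 5.63, 5.52 and 5.84 in Tnfr1,2-/- glomeruli. All 6 arrays without TNFR1 were below 6, in or near the range of the olfactory receptor genes, so how low the transcript was cannot be read from these values. The groups with and without TNFR1 were 2.58 apart at their nearest arrays. The fitted change from wildtype was -3.43 in Tnfr1,2-/- glomeruli (SE 0.343, limma adjusted p = 0.000372). It was -3.83 in Tnfr1-/- glomeruli (SE 0.343, limma adjusted p = 0.000175).

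Ccl5 encodes RANTES, which attracts T cells and monocytes. Its log2 values were 9.56, 9.76 and 9.72 in wildtype and 9.98, 9.50 and 9.22 in Tnfr2-/- glomeruli. They were 7.48, 7.75 and 6.31 in Tnfr1-/- glomeruli and 6.08, 6.73 and 5.89 in Tnfr1,2-/- glomeruli. Here too the arrays with and without TNFR1 did not overlap, with 1.47 between the nearest of them. Ccl5 fell by 3.44 from wildtype in Tnfr1,2-/- glomeruli (SE 0.348, limma adjusted p = 0.000392). In Tnfr1-/- glomeruli it fell by 2.50 (SE 0.348, limma adjusted p = 0.00412), which is 5.65-fold.

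The count of 3 called among 9 measured ligands stood beside 0.879% of all genes called lower in Tnfr1,2-/- glomeruli and beside 0.72% called lower in Tnfr1-/- glomeruli. Both comparisons share the wildtype arrays and are not independent. As the members were chosen with earlier results of these data known, the count beside the share is no test of the set. No ligand was called higher in either, where 0.418% and 0.484% of all genes were. In Tnfr1,2-/- glomeruli 5 of the 9 ligands (Ccl2, Ccl4, Ccl5, Ccl7 and Ccl17) had all 3 arrays below all 3 wildtype arrays, as had 5.77% of all genes. In Tnfr1-/- glomeruli 4 did (Ccl2, Ccl5, Ccl7 and Ccl17), beside 5.51% of all genes. The median change of the 9 ligands was -0.84 in Tnfr1,2-/- glomeruli and -0.33 in Tnfr1-/- glomeruli, where the median of all genes was -0.00 in each. The calls of Ccl2, Ccl5 and Ccl7 in both mutants held under all 26 alternative settings, with an adjusted p of up to 0.0427 for Ccl5 in Tnfr1-/- glomeruli. Within the 2 array sets the difference between Tnfr1,2-/- and wildtype was -5.33 and -5.69 for Ccl2, -3.57 and -3.41 for Ccl5, and -3.18 and -3.96 for Ccl7. The difference between Tnfr1-/- and wildtype was -5.32 and -6.05 for Ccl2, -2.05 and -3.41 for Ccl5, and -3.42 and -4.66 for Ccl7. These differences within sets rest on few arrays. For Tnfr1,2-/- glomeruli they compare 1 array with 2 and then 2 with 1. For Tnfr1-/- glomeruli they compare 2 arrays with 2 and then 1 with 1. The p-values measure the spread between preparations of glomeruli, and the sources used here do not say how mice were divided among them. In whole glomeruli, less RNA per cell and fewer cells that make a transcript cannot be told apart.

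**Figure D2:**
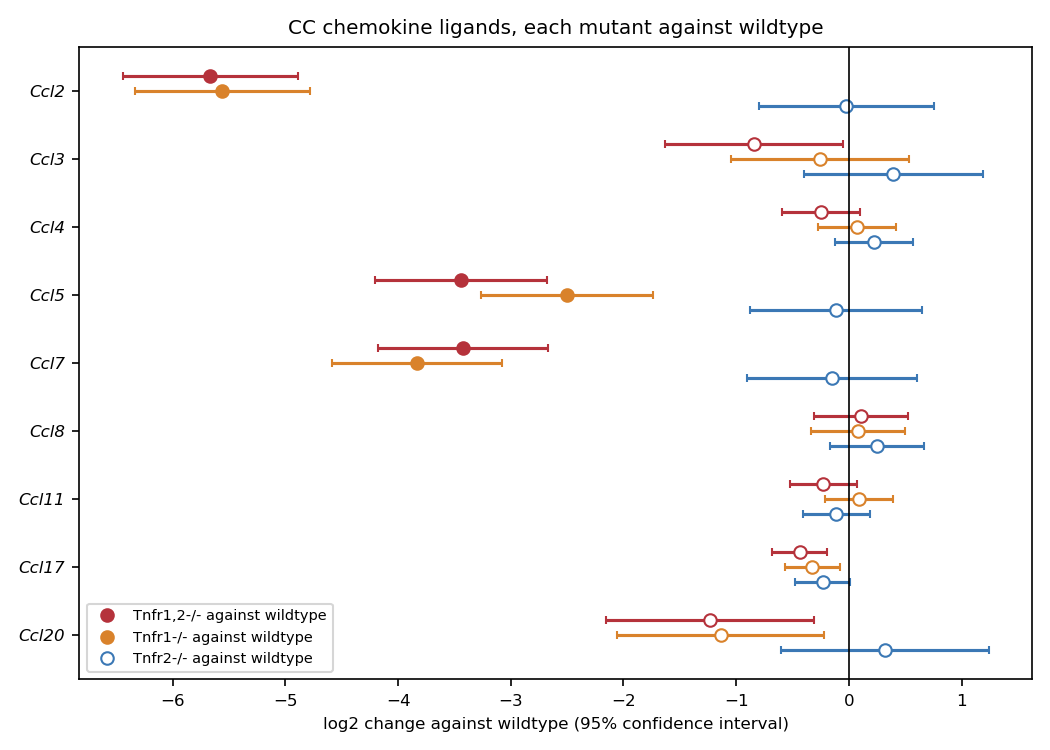
Log2 change against wildtype (x axis) of the 9 measured CC ligands (y axis) in Tnfr1,2-/-, Tnfr1-/- and Tnfr2-/- glomeruli, with 95% confidence intervals from the model. Filled points passed the test and open points did not; the filled points are those of Ccl2, Ccl5 and Ccl7 in the genotypes without TNFR1, between -5.67 and -2.50.

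Loss of TNFR2 alone addressed whether the second receptor contributes to these transcripts at this dose. No ligand was called in Tnfr2-/- glomeruli, and of all genes 0% was called lower and 0% higher. At an unadjusted p under 0.05 there were 128 genes, 0 of them CC ligands, and SAM, the test of the original methods, called 3 genes lower, 1 higher and 0 ligands. The change from wildtype was -0.02 for Ccl2 (95% confidence interval -0.80 to 0.75), -0.11 for Ccl5 (-0.87 to 0.65) and -0.15 for Ccl7 (-0.90 to 0.61). Changes within these intervals could not have been told from none. Ccl17 alone had all 3 Tnfr2-/- arrays below the wildtype arrays, beside 2.62% of all genes.

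Against Tnfr2-/- glomeruli, the same 3 ligands were called lower in both genotypes without TNFR1. In Tnfr1,2-/- glomeruli the change was -5.64 for Ccl2, -3.33 for Ccl5 and -3.28 for Ccl7 (limma adjusted p = 9.92e-06, 0.000454 and 0.000454), beside 1.04% of all genes called lower. In Tnfr1-/- glomeruli it was -5.54, -2.39 and -3.68 in that order (limma adjusted p = 1.22e-05, 0.00478 and 0.000204), beside 0.846% of all genes.

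Where TNFR1 was already absent, the further loss of TNFR2 gave no called ligand, and 0.0055% of all genes were called lower. Ccl2 differed by -0.11 between Tnfr1,2-/- and Tnfr1-/- glomeruli (95% confidence interval -0.88 to 0.67). Ccl5 was lower by a mean of -0.94 (-1.71 to -0.18), which had an unadjusted p of 0.0196 in limma and an adjusted p of 0.919. That difference was -1.53 in the one array set (1 Tnfr1,2-/- array against 2) and -0.00 in the other (2 against 1). Ccl7 lay the other way, with all 3 Tnfr1,2-/- arrays above all 3 Tnfr1-/- arrays (5.52 to 5.84 against 4.97 to 5.51) and a change of 0.41 (limma adjusted p = 0.919). For all genes, 2.46% had such an order of arrays.

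The interaction term asks whether the effect of losing TNFR1 differed with and without TNFR2. It was called for no ligand and for 0% of all genes. It was -0.08 for Ccl2 (95% confidence interval -1.18 to 1.01), -0.83 for Ccl5 (-1.91 to 0.25) and 0.55 for Ccl7 (-0.51 to 1.62). Ccl4 had an interaction of -0.54 with an unadjusted p of 0.0338 and an adjusted p of 0.998 in limma.

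The mean effect of losing TNFR1 over all 12 arrays, 6 with and 6 without the receptor, uses more arrays than any pair of genotypes. By this measure 4 of 9 ligands were called lower, beside 1.59% of all genes. The 6 arrays without the receptor were all below the 6 with it for 3 of the 9, namely Ccl2, Ccl5 and Ccl7, and for 1.78% of all genes. Ccl2 had a change of -5.60 (SE 0.250), Ccl7 of -3.56 (SE 0.242) and Ccl5 of -2.92 (SE 0.246), with limma adjusted p-values of 2.95e-07, 7.41e-06 and 3.98e-05. The corresponding mean effect of losing TNFR2 was called for none of the ligands, where 0.0165% of all genes were called lower and 0.011% higher, and it was -0.53 for Ccl5 (95% confidence interval -1.07 to 0.01).

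Ccl20, the ligand of CCR6 and an attractant of dendritic cells and T cells, was the remaining ligand of the 4. Its log2 values were 8.80, 7.14 and 8.33 in wildtype and 8.56, 8.83 and 7.83 in Tnfr2-/- glomeruli. They were 7.42, 6.74 and 6.69 in Tnfr1-/- and 7.42, 6.64 and 6.51 in Tnfr1,2-/- glomeruli. Only wildtype replicate 2 broke the order of the groups, as it lay below the highest array of each genotype without TNFR1. The change over the 12 arrays was -1.35 (SE 0.296, limma adjusted p = 0.0327), or 2.54-fold lower. This call was lost without any one of wildtype replicates 1 and 3, Tnfr1,2-/- replicates 2 and 3, Tnfr1-/- replicates 2 and 3 or Tnfr2-/- replicates 1 and 2, with an adjusted p between 0.0756 and 0.103, and with all probe sets tested (0.0611). Single comparisons with wildtype gave -1.23 in Tnfr1,2-/- glomeruli (limma adjusted p = 0.349) and -1.14 in Tnfr1-/- glomeruli (0.468). Between Tnfr1-/- and Tnfr2-/- glomeruli the difference was -1.46 (limma adjusted p = 0.201), and it was called with the replicate block (0.0310). The labels do not say that replicate numbers pair the arrays. Within the array sets, on the few arrays given above, the difference from wildtype was -0.55 and -1.75 in Tnfr1,2-/- glomeruli. In Tnfr1-/- glomeruli it was -0.89 and -1.63.

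The promoter of Ccl20 is shown because it alone, of the members' windows read from RefSeq, held a match to the NF-kB consensus. The 250 bases upstream of the annotated start (RefSeq, GRCm38.p6) were read for 5 of the 10 members, Ccl3, Ccl8, Ccl17, Ccl19 and Ccl20, and not for Ccl2, Ccl4, Ccl5, Ccl7 and Ccl11. They were searched on both strands for the 10-base NF-kB consensus. Capitals mark the match, which begins 80 bases upstream of the Ccl20 start (chr1:83116516-83116765, plus strand). The window of Ccl3, whose change did not pass the test, is given for comparison and holds none (chr11:83649379-83649628, minus strand).
Ccl20: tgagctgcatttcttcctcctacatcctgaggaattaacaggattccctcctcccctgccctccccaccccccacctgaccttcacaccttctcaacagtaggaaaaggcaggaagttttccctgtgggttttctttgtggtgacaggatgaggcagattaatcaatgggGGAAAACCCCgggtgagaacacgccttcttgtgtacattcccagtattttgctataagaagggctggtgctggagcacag
Ccl3: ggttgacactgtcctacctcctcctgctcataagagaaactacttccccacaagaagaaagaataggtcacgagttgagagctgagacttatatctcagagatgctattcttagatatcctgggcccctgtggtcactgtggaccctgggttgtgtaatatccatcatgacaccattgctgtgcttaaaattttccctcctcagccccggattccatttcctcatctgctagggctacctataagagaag
Of 32851 such windows in the annotation, 1281 hold at least 1 match, which is 3.9%. A match describes letters and does not show that the factor binds.

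Ccl3 and Ccl4 encode MIP-1α and MIP-1β, which macrophages and lymphocytes release. The log2 values of Ccl3 were 5.91, 6.32 and 5.98 in wildtype, 6.14, 7.05 and 6.22 in Tnfr2-/-, 5.89, 6.12 and 5.44 in Tnfr1-/-, and 4.83, 6.12 and 4.75 in Tnfr1,2-/- glomeruli. Most arrays lay near 6, and Tnfr1,2-/- replicates 1 and 3 lay more than 1 below every wildtype array while replicate 2 lay among them. Neither the difference of Tnfr1,2-/- glomeruli from wildtype, -0.84 (SE 0.360, limma adjusted p = 0.541), nor that over the 12 arrays, -0.75 (0.226), passed the test. Without Tnfr1,2-/- replicate 2 the latter became -0.97 and passed (limma adjusted p = 0.0268). With array weights the values were smaller, -0.27 and -0.44, and did not pass. Ccl4 had values of 6.49 to 6.83 in wildtype, 6.74 to 7.06 in Tnfr2-/-, 6.46 to 6.95 in Tnfr1-/- and 6.36 to 6.48 in Tnfr1,2-/- glomeruli. All 12 values lay between 6.36 and 7.06, and the difference of Tnfr1,2-/- glomeruli from wildtype was -0.25 (limma adjusted p = 0.736).

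Markers of macrophages, which also make CC ligands, were examined beside these results. Of 12 macrophage markers, among them Adgre1, Cd68 and Csf1r, 0 were called in any comparison with wildtype. Their linear signals were summed, which weighs bright markers such as Lyz2 most. In log2 units this sum was 12.4 to 13.0 in wildtype and 11.8 to 12.4 in Tnfr1,2-/- glomeruli. It was 12.0 to 13.2 in Tnfr1-/- and 12.4 to 13.3 in Tnfr2-/- glomeruli, so the sum was lowest in Tnfr1,2-/- glomeruli. Lyz2 was at 11.48, 12.14 and 11.90 in wildtype and 10.91, 11.47 and 10.47 in Tnfr1,2-/- glomeruli. Ptprc lay the other way, at 6.95, 7.64 and 7.62 against 7.19, 8.18 and 8.22. The median change of the 12 markers in Tnfr1,2-/- glomeruli was -0.23. Cd68 ranged from 8.26 to 9.85 in wildtype, from 8.32 to 10.66 in Tnfr1-/- and from 8.61 to 9.09 in Tnfr1,2-/- glomeruli, while the values of Adgre1 lay between 5.83 and 7.13 on all 12 arrays. Over the 12 arrays, which share genotype and array set, the mean log2 value of these markers had a Pearson r of 0.79 with Ccl3 and of 0.72 with Ccl4. For Ccl2 the value was 0.33. The part of the macrophage markers in the values of Ccl3 and Ccl4 was not tested. Of 7 neutrophil markers 5 were measured, 0 of them reached 6 on at least 3 arrays and 0 were called against wildtype. Of these 5, 1 was called lower over the 12 arrays, S100a8, by 1.22 (limma adjusted p = 0.00220). It was also called against Tnfr2-/- glomeruli in Tnfr1,2-/- and Tnfr1-/- glomeruli (0.00988 and 0.0146). The median change of the 5 over the 12 arrays was 0.01. S100a9 lay the other way, at 4.07 to 4.33 with TNFR1 and 4.31 to 4.83 without it. The summed linear signal of the 5, in log2 units, was 6.91 to 7.15 in wildtype and 7.08 to 7.24 in Tnfr2-/- glomeruli. It was 6.78 to 6.89 in Tnfr1-/- and 6.57 to 7.03 in Tnfr1,2-/- glomeruli. Over the 12 arrays the mean log2 value of the neutrophil markers had a Pearson r of 0.69 with Ccl2, 0.70 with Ccl5 and 0.70 with Ccl7. The part of these markers in the values of the ligands was not tested.

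Ccl8, Ccl11 and Ccl17 did not reach 6 on any array. Ccl8, which encodes MCP-2, lay between 4.33 and 5.02, and Ccl11, which encodes the eosinophil attractant eotaxin, between 2.72 and 3.28. The 4 genotypes overlapped for Ccl8. For Ccl11 all 3 Tnfr1,2-/- arrays (2.72 to 3.04) were below the Tnfr1-/- arrays (3.07 to 3.28), as were 2.14% of all genes, with a difference of -0.32 (limma adjusted p = 0.919). Ccl17, a ligand of CCR4, had values of 5.31 to 5.35 in wildtype, 5.05 to 5.20 in Tnfr2-/-, 4.88 to 5.08 in Tnfr1-/- and 4.86 to 4.96 in Tnfr1,2-/- glomeruli. Each mutant was below wildtype without overlap, but by -0.44 at most, and no comparison passed the test (limma adjusted p = 0.127 for Tnfr1,2-/-, 0.379 for Tnfr1-/- and 1 for Tnfr2-/-). At values this low the arrays give little information on these 3 transcripts, and a change in them was not detectable here rather than shown to be absent.

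Most CC ligand genes of the mouse stand together on chromosome 11, in 2 groups with 25 other coding genes between them. In the RefSeq order the one group is Ccl2, Ccl7, Ccl11, Ccl12, Ccl8 and Ccl1, and the other is Ccl5, Ccl9, Ccl6, Ccl3 and Ccl4. Genes that were called and genes that were not stood next to each other in both groups. Ccl2 and Ccl7 changed by -5.60 and -3.56 without TNFR1, and their neighbour Ccl11 by -0.01 at a level under 6. Ccl9, between Ccl5 and Ccl6, was called lower as well, and Ccl6 and Ccl3 were not. Ccl20 and Ccl17 lie on chromosomes 1 and 8.

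**Figure D3:**
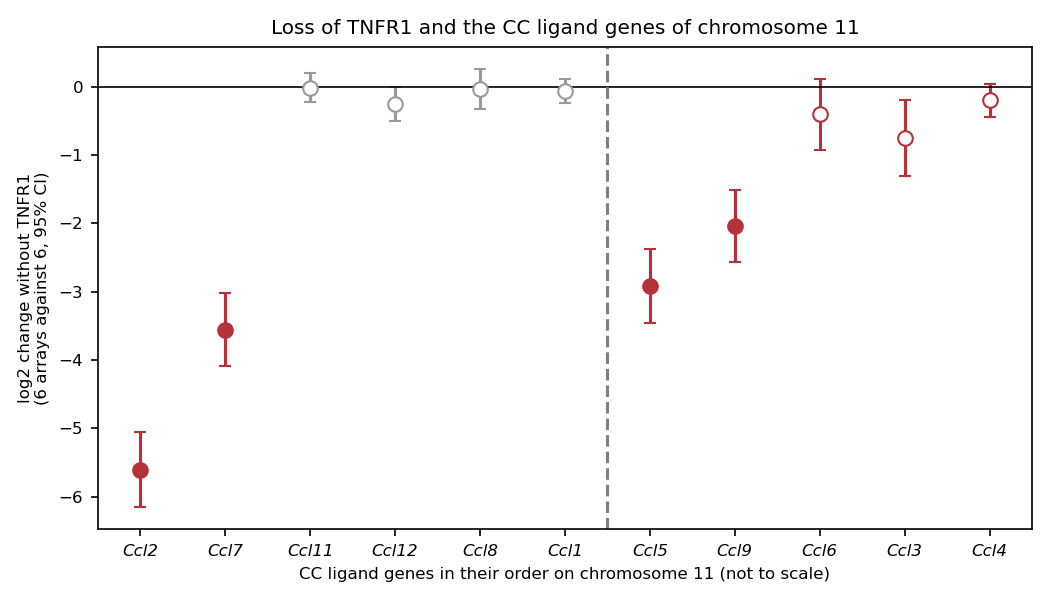
Mean log2 change without TNFR1, 6 arrays against 6 (y axis, with 95% confidence interval), of the 11 CC ligand genes of chromosome 11 in their order along it (x axis, not to scale). Filled points passed the test, grey points are genes that did not reach a log2 value of 6 on at least 3 arrays, and the dashed line marks the 25 other coding genes between the groups; Ccl2, Ccl7, Ccl5 and Ccl9 are the filled points.

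Among 11 further CC ligand genes, 9 were measured, and 1 of these, Ccl9, was called lower in Tnfr1,2-/- and in Tnfr1-/- glomeruli and 0 were called higher. Ccl9 encodes MIP-1γ, a ligand of CCR1. Its log2 values were 8.44, 8.97 and 8.96 in wildtype, 8.62, 9.05 and 8.23 in Tnfr2-/-, 6.30, 7.61 and 6.18 in Tnfr1-/- and 6.50, 6.75 and 6.72 in Tnfr1,2-/- glomeruli. The arrays without TNFR1 were all below those with it. It fell by 2.13 in Tnfr1,2-/- glomeruli (SE 0.342, limma adjusted p = 0.00862) and by 2.09 in Tnfr1-/- glomeruli (0.0104). Both calls were lost without wildtype replicate 2 (0.0560 and 0.0653), and the latter also without Tnfr1-/- replicate 1 (0.0544). Over the 12 arrays the change was -2.04 (limma adjusted p = 0.000492), a call that held under every alternative run for it, and the other probe set of Ccl9 had a mean change of -2.24. Ccl6, the neighbour of Ccl9, differed by -0.25 and -0.10 in the same comparisons (limma adjusted p = 0.871 and 0.9999). Of the 9 further ligands with a RefSeq window, Ccl9 alone held a match to the NF-kB consensus, which begins 35 bases upstream of its start (chr11:83578637-83578886, minus strand).
Ccl9: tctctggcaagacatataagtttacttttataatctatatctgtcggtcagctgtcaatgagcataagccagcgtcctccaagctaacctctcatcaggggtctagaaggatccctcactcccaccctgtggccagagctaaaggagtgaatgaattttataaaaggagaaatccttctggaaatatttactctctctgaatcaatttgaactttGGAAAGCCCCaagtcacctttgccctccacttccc

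The receptors of these ligands showed no such pattern. Of 10 CC receptor genes 9 were measured, 0 were called in any comparison, and 1, Ccr1, reached 6 on at least 3 arrays. Ccr1 had values of 5.70 to 6.44 in wildtype and 6.09 to 6.38 in Tnfr1,2-/- glomeruli, and Ccr2, the receptor of Ccl2 and Ccl7, 5.63 to 5.89 and 5.37 to 5.94. Among 5 atypical receptors, which bind chemokines without signalling through G proteins, Ccrl2 was called lower in Tnfr1,2-/- glomeruli. Its values were 8.17, 8.52 and 8.46 in wildtype, 8.53, 8.18 and 8.11 in Tnfr2-/-, 7.25, 7.96 and 7.40 in Tnfr1-/- and 6.99, 6.90 and 6.69 in Tnfr1,2-/- glomeruli. The change from wildtype was -1.52 in Tnfr1,2-/- glomeruli (limma adjusted p = 0.00222). Tnfr1-/- glomeruli differed by -0.85 (0.0825), which passed with the replicate number as a block (0.0409) and without Tnfr1-/- replicate 2 (0.0192). It also passed with array weights (0.0213) and with the array set as a block (0.0333). Of 8 genes for chemokine-binding proteoglycans and the chemokine-cleaving peptidase Dpp4, 0 were called against wildtype, and Sdc4, which encodes syndecan-4, was called over the 12 arrays, with a change of -1.15 (limma adjusted p = 0.0295) that missed the threshold without any one of wildtype replicates 1 and 2, Tnfr1,2-/- replicates 2 and 3 and Tnfr1-/- replicates 2 and 3 (0.0614 to 0.0916). The 12-array call of Sdc4 was also lost with all probe sets tested (0.0546). Against wildtype, Sdc4 was called in Tnfr1-/- glomeruli with the replicate block (0.0341), with the array set block (0.0349) and by SAM. In Tnfr1,2-/- glomeruli it was called with the replicate block (0.0434) and with array weights (0.0283).

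NF-kB genes were counted because the factor acts between TNF receptors and these ligands. Of 9 listed genes 8 were measured, and those called lower were inhibitors of the pathway, which NF-kB itself induces. Nfkbib, a further inhibitor, was not called. Its values were 9.98, 10.15 and 9.48 in wildtype and 9.49, 8.76 and 8.15 in Tnfr1,2-/- glomeruli. Nfkbia, Nfkbie and Tnfaip3 were called lower in Tnfr1,2-/- glomeruli, by 0.72, 1.74 and 1.97 on the log2 scale (limma adjusted p = 0.0350, 0.0198 and 0.00186). In Tnfr1-/- glomeruli Nfkbie and Tnfaip3 were called, with changes of -2.17 and -1.34 (0.00532 and 0.0233). Nfkbia had a change of -0.61 there (0.0830, or 0.0314 with the replicate block). It also passed there with the array set block (0.0209), with array weights (0.0149) and with a variance trend (0.0375). In Tnfr1,2-/- glomeruli the call of Nfkbia was lost without any one of wildtype replicates 1 to 3, Tnfr1,2-/- replicates 1 to 3 or Tnfr2-/- replicates 1 to 3 (0.0555 to 0.146), and that of Nfkbie without any one of wildtype replicates 1 to 3 or Tnfr1,2-/- replicate 1 (0.0525 to 0.0849). The Nfkbia call there was also lost with all probe sets tested (limma adjusted p = 0.0581) and with probe sets averaged within a gene (0.108). It was lost too with only the 6 arrays compared (0.123), with median centring (0.108) and with a 2-fold threshold. The call of Tnfaip3 in Tnfr1-/- glomeruli was lost without any one of wildtype replicates 1 and 2 or Tnfr1-/- replicates 1 and 3 (0.0840 to 0.121). That call was also lost with probe sets averaged within a gene (0.193). Over the 12 arrays Nfkbia, Nfkbie and Tnfaip3 changed by -0.65, -1.90 and -1.69, and no left-out array ended these 3 calls. Tnfaip3, which encodes the inhibitor A20, had values of 11.61, 11.63 and 11.27 in wildtype and 9.96, 9.22 and 9.42 in Tnfr1,2-/- glomeruli. The subunit genes Rela, Relb, Rel and Nfkb2 were not called, with changes from -1.87 to -0.16 in Tnfr1,2-/- glomeruli, of which that of Nfkb2 was -1.87 (limma adjusted p = 0.443) and that of Relb -1.61 (0.164). Nfkb2 also differed between the array sets, with 8.92 on wildtype replicate 3 and 10.44 and 10.54 on the other wildtype arrays.

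**Figure D4:**
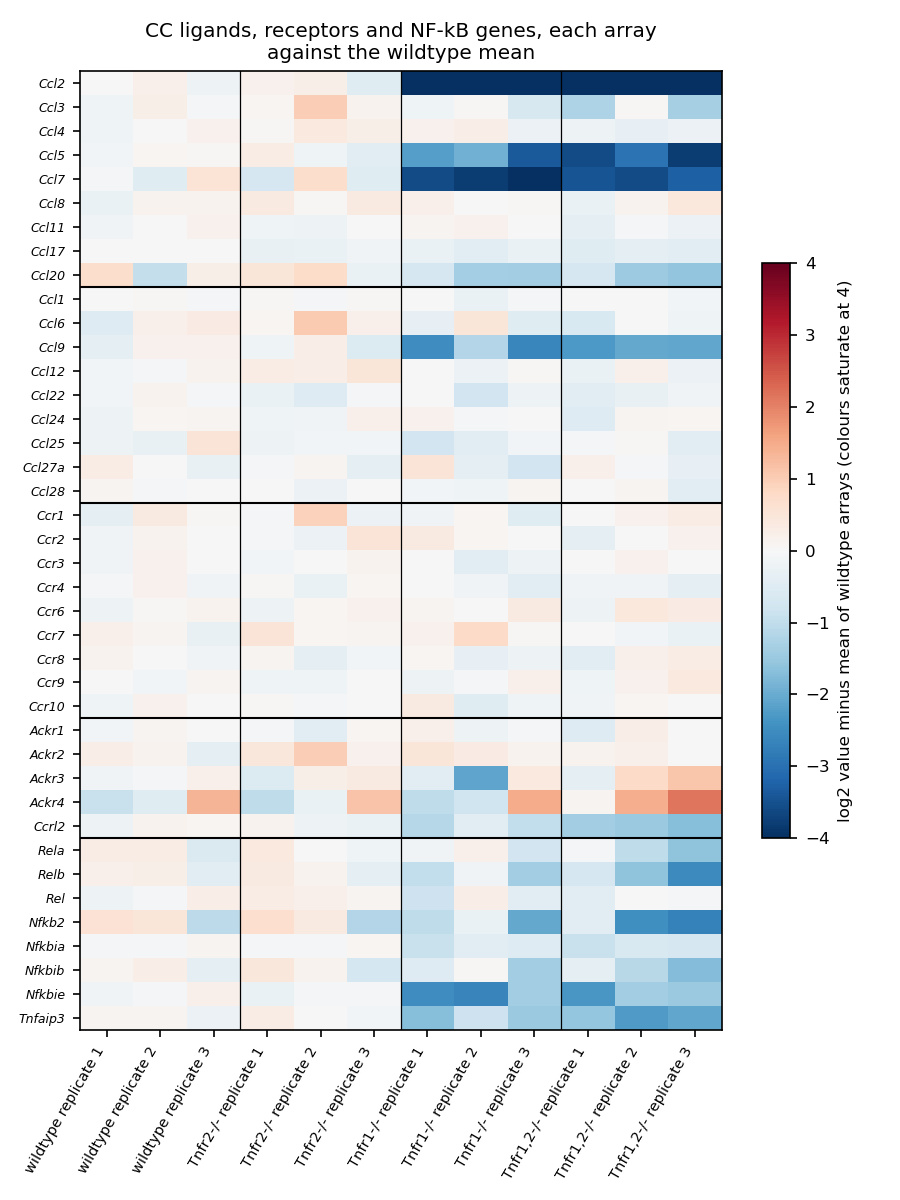
Log2 value of each array minus the mean of the wildtype arrays (colour, saturating at 4) for CC ligands, further CC ligands, CC receptors, atypical receptors and NF-kB genes (rows, in blocks in that order) on the 12 arrays grouped by genotype (columns). Rows that are blue in the 6 columns without TNFR1 include Ccl2, Ccl5, Ccl7, Ccl9, Ccrl2, Nfkbie and Tnfaip3, and the block of CC receptors is pale throughout.

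The genes most like the 3 called ligands over the 12 arrays were found by Pearson r among all genes, as a description. For Ccl2 these were Slc2a6, a sugar transporter, with an r of 0.993, Cfb, complement factor B, with 0.990, and Cxcl3, a neutrophil attractant, with 0.988. Ccl5 was most like Cxcl16, Cish and Psmb8, a subunit of the immunoproteasome, with r of 0.981, 0.981 and 0.980. Ccl7 was most like Arg2, Adhfe1 and Hp, which encodes haptoglobin, with r of 0.979, 0.975 and 0.972. Each r includes the difference between genotypes. After the genotype means were removed, r for Ccl2 was 0.76 with Slc2a6, 0.53 with Cfb and 0.60 with Cxcl3. For Ccl5 it was 0.78 with Cxcl16, 0.84 with Cish and 0.75 with Psmb8. For Ccl7 it was 0.50 with Arg2, 0.31 with Adhfe1 and 0.10 with Hp. Among the called ligands themselves, r within genotypes was 0.62 for Ccl2 with Ccl5, 0.11 for Ccl2 with Ccl7 and 0.02 for Ccl5 with Ccl7. Within genotypes r was thus higher for Ccl2 with Ccl5 than for either with Ccl7. The differences between these r were not tested, and Ccl7 lay under 6 on all 6 arrays without TNFR1.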

How the data were processed

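RNA from 12 cultures of TNF-exposed glomeruli had been hybridized to Affymetrix Mouse Genome 430 2.0 arrays. The authors normalized the 12 arrays together by RMA and deposited log2 values, taken here without further scaling. RMA assumes like distributions, so a shift common to all genes cannot be seen. Of 45101 probe sets, 64 were controls, 34945 carried 1 symbol, 932 several and 9160 none; those with 1 symbol were used, the brightest by mean for each of 18193 genes. Genotype means were fitted to 12 arrays (limma 3.58.1, R 4.3.3, 8 residual degrees of freedom), and the models were tested on simulated data. SAM, the test of the study's methods, was written anew and used as an alternative. The number of arrays limits the precision. Named were all members, the called genes or the smallest adjusted p of each other list, and the 3 genes most like each called member. Members and lists were chosen with earlier results of these data known. Same-numbered arrays of wildtype, Tnfr1-/- and Tnfr2-/- glomeruli had deviations from their genotype means that correlated between 0.18 and 0.73. Tnfr1-/- replicate 2 correlated more with Tnfr2-/- replicate 1 (0.43) than with Tnfr2-/- replicate 2 (0.18). The labels do not say that the numbers pair samples. Replicate 3 of each genotype lay in the same array set, so pairing and array set cannot be told apart there. Alternatives were all probe sets, their mean, no _s_at or _x_at probe sets, SAM, only the 6 arrays compared, a variance trend, array weights, other fold thresholds (none or 2), cyclic loess, median centring, dim genes left out (6 on at least 3 arrays required), a replicate block, an array set block and each array left out. Figures were drawn with matplotlib 3.10.9.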

Additional observations from a re-analysis of the deposited data

How the results depend on the processing

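The number of called CC ligands stayed within 1.5 times its value under every alternative except that 5 in place of 3 were called between Tnfr1,2-/- and Tnfr2-/- glomeruli with the replicate block, where Ccl3 (adjusted p = 0.00528) and Ccl20 (0.0190) were added. The replicate block also called Ccl3 in Tnfr1,2-/- glomeruli against wildtype (0.0459) and over the 12 arrays (0.00851). In comparisons with Tnfr1,2-/- glomeruli the same-numbered arrays correlated between 0.42 and 0.61 for replicates 1 and 3. For replicate 2, whose Tnfr1,2-/- array lay in the other array set, they correlated between -0.23 and -0.005. The labels do not give a pairing there. Among the other genotypes the labels do not give a pairing either. There the block added Ccl20 between Tnfr1-/- and Tnfr2-/- glomeruli (0.0310, with 4 called in place of 3) and changed no other call of a ligand. With only the 6 arrays compared, Ccl9 (adjusted p = 0.0900), Nfkbie (0.0514) and Tnfaip3 (0.0924) were no longer called in Tnfr1-/- glomeruli. Changes near 0 turned sign: with array weights, in Tnfr2-/- glomeruli Ccl2 (0.0056) and Ccl7 (0.028), over the 12 arrays Ccl8 (0.023) and Ccl11 (0.089), and in Tnfr1,2-/- glomeruli Ccl6 (0.013); with median centring, over the 12 arrays Ccl8 (0.0024) and Ccl11 (0.023); and with probe sets averaged within a gene, Ccl6 in Tnfr1,2-/- (0.067) and Tnfr1-/- glomeruli (0.024). With 1 array left out the changes ran, in Tnfr1,2-/- glomeruli, from -0.059 to 0.290 for Ccl8; in Tnfr1-/- glomeruli, from -0.029 to 0.218 for Ccl4, -0.051 to 0.150 for Ccl8 and -0.400 to 0.088 for Ccl6; in Tnfr2-/- glomeruli, from -0.155 to 0.212 for Ccl2, -0.319 to 0.061 for Ccl5, -0.570 to 0.125 for Ccl7 and -0.152 to 0.676 for Ccl20; and over the 12 arrays, from -0.115 to 0.060 for Ccl8 and -0.055 to 0.028 for Ccl11. The cause was not tested. Genes called lower over all genes numbered 160 in Tnfr1,2-/- glomeruli (453 with array weights, 328 with the replicate block, 243 with the array set block, 97 without wildtype replicate 2) and 131 in Tnfr1-/- glomeruli (198, 240, 258 and 78, and 60 with only the 6 arrays compared). Genes called higher numbered 76 in Tnfr1,2-/- glomeruli (582, 269, 145 and 33 under the same settings, and 46 with only the 6 arrays compared) and 88 in Tnfr1-/- glomeruli (158, 197, 212, 40 and 37). Other arrays whose omission moved such a count by over 1.5 times were wildtype replicate 1 (39 and 55 higher), Tnfr1,2-/- replicates 2 and 3 (46 and 49 higher in Tnfr1,2-/- glomeruli) and Tnfr1-/- replicate 1 (87 lower in Tnfr1-/- glomeruli), and SAM called 152 higher in Tnfr1,2-/- glomeruli. Values under the background mark limit what can be said of Ccl8, Ccl11 and Ccl17, and of Ccl7 without TNFR1.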

Other observations

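Ccl2 and Ccl17 ran against each other within genotypes. After the genotype means were removed their Pearson r over the 12 arrays was -0.92, the strongest of 36 pairs of ligands in size, where r between all values was 0.72. The pair was singled out after its value was seen, and Ccl17 was below the background mark on every array.

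S100a8 was the 1 neutrophil marker of 5 measured that was called lower over the 12 arrays, and S100a9 was not lower there. S100a8 stayed under 6 on all 12 arrays, with values of 4.72, 5.06 and 5.23 in wildtype, 5.77, 5.74 and 5.15 in Tnfr2-/-, 3.95, 4.52 and 3.79 in Tnfr1-/- and 3.66, 4.08 and 4.34 in Tnfr1,2-/- glomeruli. Among the markers of glomerular cells, Kdr of endothelium and Itga8 of mesangium were called higher in Tnfr1-/- glomeruli than in wildtype, by 1.09 and 1.40 on the log2 scale (limma adjusted p = 0.0414 and 0.00524). Against wildtype, Tnfr1,2-/- glomeruli differed by 0.75 for Kdr and 0.94 for Itga8, which were not called (0.229 and 0.0562).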
